A study of Mus musculus with 24 samples.

Results

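A set of 10 genes was followed as receptors and markers of fibroblasts and other stromal cells: Pdgfra and Pdgfrb, Fbn1, Fn1 and Postn, Ly6a and Thy1, S100a4, Vim and Lox. They were picked by name, as platelet-derived growth factor (PDGF) receptors and stromal markers other than collagens. Of these 10 genes, 9 had a row among the 14693 genes of the count table, and Thy1 was not analysed here. All 9 passed the filter on low counts, which kept 12994 genes.

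The counts came from C2C12 cells, a wild-type mouse myoblast line that fuses into myotubes after serum is lowered, measured by 3′ end RNA sequencing. All groups shared a growth medium with 10% fetal bovine serum, replaced by 2% horse serum to start differentiation. While differentiating, cells were given vehicle, recombinant mouse ANGPTL4 at 10 ng/mL, or LA, which stands for linoleic acid (a polyunsaturated fatty acid) carried on bovine serum albumin, at 100 µM. ANGPTL4 is a secreted inhibitor of lipoprotein lipase. RNA was collected at day 2 or day 6, which gave 6 groups of 4 libraries: vehicle, LA and ANGPTL4 at each day. The comparisons asked which genes differed with LA and with ANGPTL4 at each day, and how each treatment's cells changed from day 2 to day 6. The labels name no other cell type. The labels do not say that the libraries of a group came from separate cultures, so p-values measure the spread between these libraries, which may be technical.

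PDGF receptors are tyrosine kinases that bind dimeric PDGF ligands at the cell surface and signal through PI3 kinase, phospholipase C-gamma and Ras. Pdgfra marks fibro-adipogenic progenitors in skeletal muscle, and Pdgfrb marks pericytes and many fibroblasts. Stromal cells, and myoblasts in culture, secrete a matrix in which fibronectin is laid down early, fibrillin forms microfibrils, periostin binds both fibronectin and collagen, and lysyl oxidase cross-links collagen and elastin. Vimentin, Ly6a and S100a4 are read as markers of mesenchymal or progenitor cells but are also made by myoblasts.

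Promoter letters are shown for 4 of the genes, chosen because Pdgfra and Vim were higher with LA at day 6 and Fbn1 and Postn rose from day 2 to day 6. Of the 10 genes, 5 matched an entry of the promoter table (these 4 and S100a4). The sequences are the 250 bases before the start of the gene in RefSeq on build GRCm38.p6, which is not the build of the counts (mm39). Bases just after that start were found near the beginning of 2 GENCODE transcripts each for Vim and Postn. For Pdgfra and Fbn1 they were found in 0, so the starts of these windows are less certain. Pdgfra lies at chr5:75152001-75152250 (plus strand), Vim at chr2:13574061-13574310 (plus strand), Fbn1 at chr2:125506439-125506688 (minus strand) and Postn at chr3:54360857-54361106 (plus strand). All are written 5′ to 3′ along the gene, with motif matches in capitals.
Pdgfra: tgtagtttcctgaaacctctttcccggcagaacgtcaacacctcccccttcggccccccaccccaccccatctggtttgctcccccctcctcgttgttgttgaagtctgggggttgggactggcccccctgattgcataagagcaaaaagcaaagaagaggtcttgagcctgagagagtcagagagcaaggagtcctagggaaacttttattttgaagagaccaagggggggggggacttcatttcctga
Vim: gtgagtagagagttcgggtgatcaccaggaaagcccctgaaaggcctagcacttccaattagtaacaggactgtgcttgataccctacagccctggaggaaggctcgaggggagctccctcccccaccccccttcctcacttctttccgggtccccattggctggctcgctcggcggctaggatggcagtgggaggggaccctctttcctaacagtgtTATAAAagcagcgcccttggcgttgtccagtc
Fbn1: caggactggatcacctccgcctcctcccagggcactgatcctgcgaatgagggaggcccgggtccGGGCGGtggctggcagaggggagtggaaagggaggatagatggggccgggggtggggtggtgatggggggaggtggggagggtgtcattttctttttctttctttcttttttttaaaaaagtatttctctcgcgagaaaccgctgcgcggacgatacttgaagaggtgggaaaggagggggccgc
Postn: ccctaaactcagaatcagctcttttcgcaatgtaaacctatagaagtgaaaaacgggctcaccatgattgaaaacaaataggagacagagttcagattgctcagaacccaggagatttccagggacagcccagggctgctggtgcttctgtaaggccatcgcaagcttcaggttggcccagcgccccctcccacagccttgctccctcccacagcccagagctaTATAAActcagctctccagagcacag

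5 motifs were searched on both strands: the TATA box (TATAAA), the GC box (GGGCGG), the AP-1 site (TGANTCA), the TEAD site (GGAATG) and the TCF/LEF site (CTTTGA). The Vim promoter held a TATA box 32 bases before the start and the Postn promoter held a TATA box 26 bases before it. A TATA box was present in 12.4% of 32851 promoters of this length. The Fbn1 promoter held a GC box 185 bases before the start, a match found in 32.7% of promoters. In the Pdgfra window none of the 5 motifs matched. The AP-1, TEAD and TCF/LEF letters were found in 6.75%, 12.6% and 13.8% of all promoters and in none of these 4 windows. The matches are a description of these letters. The GC content of the windows was 54.4% for Pdgfra, 58.4% for Vim, 59.2% for Fbn1 and 52.0% for Postn.

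Library totals ranged from 6100684 to 25049912 counts, and log2 profiles within a group correlated at r of 0.986 to 0.997 over 36 pairs of libraries. Replicate 3 of LA at day 2 and replicate 1 of ANGPTL4 at day 6 stood apart on the second principal component (9.46% of the variance). Calls of the 9 genes that change without both are given as such. On that component replicate 3 of LA at day 2 lay at -19.3, among replicates 1 to 3 of ANGPTL4 at day 2 (-18.0, -19.7 and -15.2). Replicate 4 of ANGPTL4 at day 2 lay at -4.61, nearer the other day 2 LA libraries (4.07, 2.73 and 1.32). That ANGPTL4 library was left out only on its own. The 19 myoblast and muscle markers were all present, with summed levels from 22185 CPM (counts brought to the same library size) in the lowest library, of LA at day 2, to 38413 CPM in the highest, of ANGPTL4 at day 6. Smooth muscle and pericyte markers (9 of 10 in the table) summed to 3813 to 5666 CPM, a sum that includes Des (desmin), also counted among the muscle markers. Endothelial markers (3 of 7 in the table) summed to 4.73 to 8.36 CPM and macrophage markers (4 of 6) to 4.65 to 7.56 CPM. Pecam1, Kdr, Ptprc and Adgre1, which define those cells, were not analysed here. In bulk RNA, fewer cells of a type and less RNA per cell cannot be told apart.

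**Figure D1:**
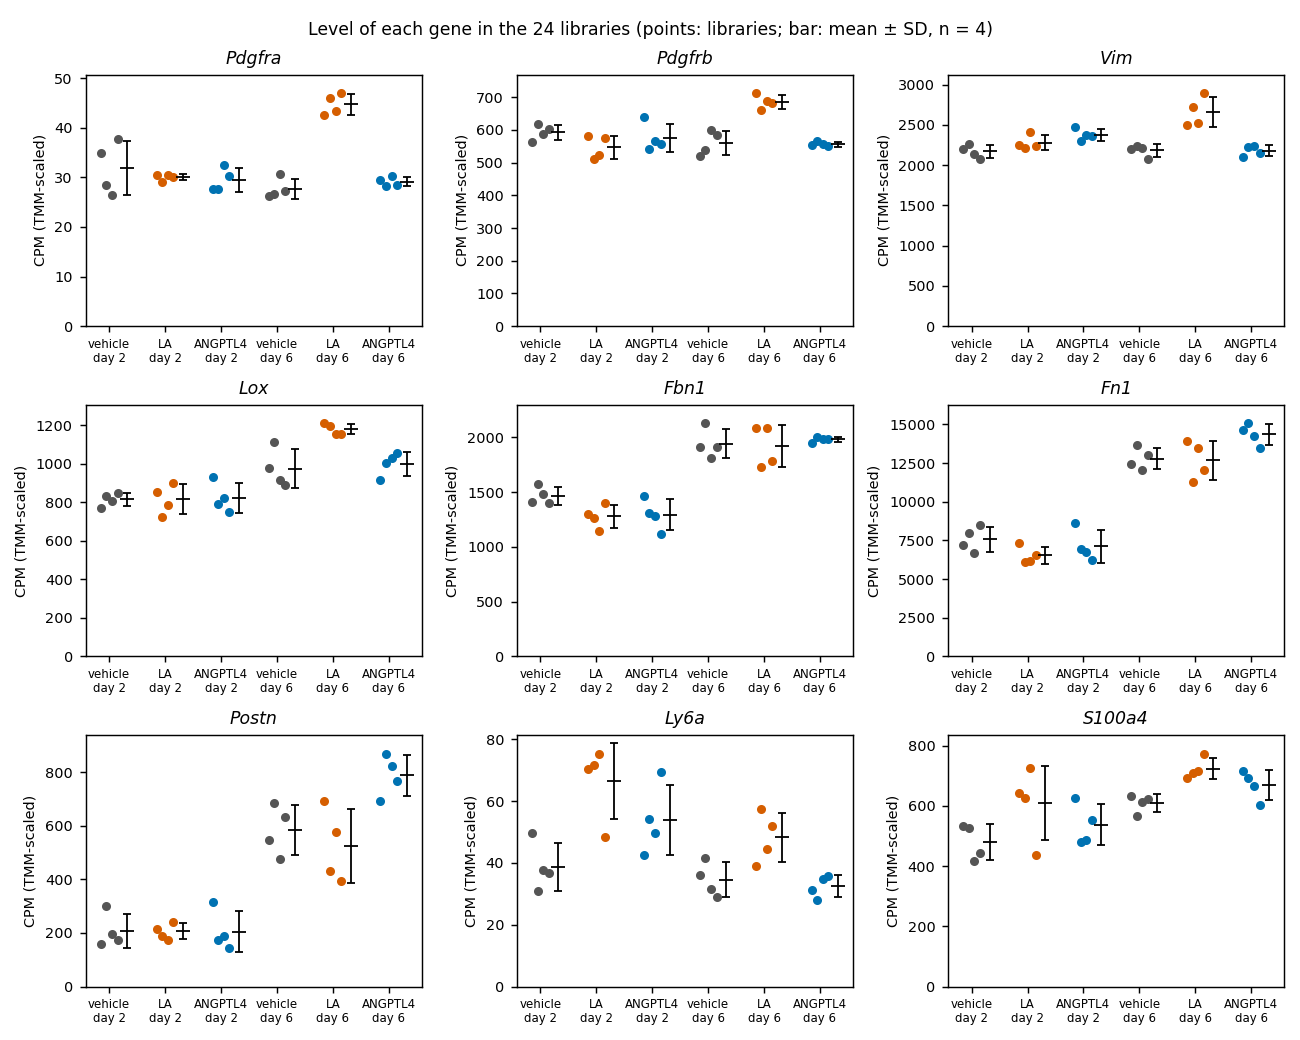
Level of each gene in CPM (linear axis from 0) in the 24 libraries, by treatment and day; points are libraries in replicate order and the bar is the mean ± SD of 4. Pdgfra, Pdgfrb, Vim and Lox stand highest in the 4 libraries of LA at day 6, while Fbn1, Fn1 and Postn separate day 6 from day 2.

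With LA at day 6, 4 of the 9 genes were higher than with vehicle: both PDGF receptors, Vim and Lox. Pdgfra rose by 1.61-fold and the other 3 by 1.21- to 1.22-fold. Of all genes tested, 17.2% were called at this contrast (7.83% higher and 9.38% lower), called meaning an adjusted p under 0.05 in edgeR. The median log2 fold change was 0.28 over the 9 genes and -0.0096 over all genes tested. Fbn1, Fn1, Postn, Ly6a and S100a4 were not called.

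Pdgfra encodes PDGF receptor alpha, which binds most PDGF dimers. In the 4 day 6 vehicle libraries it stood at 26.2, 26.6, 30.8 and 27.2 CPM (replicates 1 to 4), and with LA at 42.6, 46.1, 43.4 and 47.0 CPM. Every LA library lay above every vehicle library, and the groups did not overlap. The means were 27.7 ± 2.08 and 44.8 ± 2.1 CPM (SD, n = 4), a difference called by edgeR (log2 fold change 0.69, SE 0.0820, 95% interval 0.52 to 0.86, adjusted p = 1.94e-07). With ANGPTL4 at day 6 the libraries held 29.6, 28.2, 30.2 and 28.5 CPM, inside the range of vehicle. At day 2 the values were 26.4 to 37.8 CPM with vehicle, 29.1 to 30.5 CPM with LA and 27.6 to 32.4 CPM with ANGPTL4. In the order of the 6 group means, LA at day 6 came first and overlapped no other group, and each later group overlapped its neighbour. Within LA, Pdgfra rose from day 2 to day 6 (log2 fold change 0.57, SE 0.0780, 95% interval 0.41 to 0.73, adjusted p = 3.96e-07).

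Pdgfrb, the receptor that binds PDGF-BB and PDGF-DD, held 520.3, 539, 598 and 586 CPM in the day 6 vehicle libraries. With LA it held 712, 661, 688 and 681 CPM, again with no overlap. The means were 561 ± 37.3 and 686 ± 21.2 CPM (SD, n = 4; log2 fold change 0.29, SE 0.0538, 95% interval 0.18 to 0.40, adjusted p = 0.000166). Its rise was smaller than that of Pdgfra on the log2 scale, and the 95% intervals of the 2 receptors did not overlap. In the day 6 ANGPTL4 libraries Pdgfrb was at 552, 567, 558 and 549.7 CPM, within the vehicle range. At day 2 its level was 563 to 619 CPM with vehicle, 510.1 to 579.9 CPM with LA and 542 to 639 CPM with ANGPTL4, and these 3 groups overlapped. Day 6 LA was the highest of the 6 groups and the other 5 overlapped their neighbours in the order. Within LA, Pdgfrb rose from day 2 to day 6 by 0.33 on the log2 scale (SE 0.0536, adjusted p = 8.96e-06).

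Vim encodes vimentin, the intermediate filament protein of mesenchymal cells and of dividing myoblasts. Its level at day 6 was 2204, 2242, 2211 and 2072 CPM with vehicle and 2502, 2721, 2526 and 2894 CPM with LA. All LA libraries were above all vehicle libraries, with replicates 2 and 4 highest. The group means were 2182 ± 75.1 and 2661 ± 184 CPM (SD, n = 4; log2 fold change 0.29, SE 0.0489, 95% interval 0.19 to 0.39, adjusted p = 5.53e-05). At day 2 Vim held 2079 to 2264 CPM with vehicle, 2213 to 2413 CPM with LA and 2296 to 2478 CPM with ANGPTL4. The 4 ANGPTL4 libraries of day 2 lay above the vehicle libraries, but edgeR did not call the difference (log2 fold change 0.13, adjusted p = 0.0793; 0.0491 when counts were scaled by library totals alone). From day 2 to day 6 Vim rose with LA (0.22, adjusted p = 0.000421) and fell by 0.13 with ANGPTL4 (adjusted p = 0.0356). The fall with ANGPTL4 lost its call without replicate 1 or 3 of day 2 ANGPTL4 (adjusted p 0.0848 and 0.0522) and without replicate 1 or 4 of day 6 ANGPTL4 (0.104 and 0.0834). That call was also lost without both libraries that stood apart.

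Lox encodes lysyl oxidase, the copper enzyme that cross-links collagen and elastin. It stood at 978, 1113, 915 and 892 CPM with vehicle and 1209, 1198, 1156 and 1156 CPM with LA at day 6. The lowest LA library was above the highest vehicle library, replicate 2. Means were 974 ± 99.6 and 1179.8 ± 28.0 CPM (SD, n = 4; log2 fold change 0.28, SE 0.0685, 95% interval 0.14 to 0.42, adjusted p = 0.00419). With ANGPTL4 the day 6 level was 913 to 1053 CPM, overlapping vehicle. The 3 groups of day 2 overlapped, with means of 814 ± 34.1 CPM with vehicle, 815 ± 77.7 CPM with LA and 821 ± 77.5 CPM with ANGPTL4. Lox rose from day 2 to day 6 in each treatment, by 0.26 with vehicle, 0.53 with LA and 0.28 with ANGPTL4 on the log2 scale (adjusted p 0.00280, 2.17e-07 and 0.00117). The vehicle rise lost its call without replicate 2 of day 6 vehicle (adjusted p = 0.0510).

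For the same 4 genes the effect of LA was larger at day 6 than at day 2, by the test of the difference between the 2 effects. In all, 19.7% of genes were called for this change and 8.68% were called higher, against 4 of the 9, all higher. The difference was 0.78 for Pdgfra (SE 0.114, adjusted p = 2.48e-05) and 0.41 for Pdgfrb (SE 0.0759, adjusted p = 0.000368). For Vim it was 0.22 (SE 0.0691, adjusted p = 0.0264), which lost its call without replicate 4 of LA at day 6 (adjusted p = 0.0552). For Lox it was 0.28 (SE 0.0969, adjusted p = 0.0437), near the threshold. Leaving out any of 9 of the 16 libraries ended the call of Lox, with adjusted p from 0.0571 (day 2 vehicle replicate 2) to 0.0876 (day 2 vehicle replicate 4). The other 7 were replicates 2 and 3 of day 2 LA (0.0847 and 0.0704), replicates 1 and 2 of day 6 LA (0.0724 and 0.0634) and replicates 1, 3 and 4 of day 6 vehicle (0.0571, 0.0828 and 0.0648). Lox also lost this call without both libraries that stood apart. At day 2 the effects of LA on Pdgfra (-0.087, 95% interval -0.25 to 0.075) and Pdgfrb (-0.12, -0.22 to -0.0059) were not called.

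LA and ANGPTL4 were also set against each other at day 6, where 13.9% of all genes were called (6.60% higher with LA and 7.32% lower). Again Pdgfra, Pdgfrb, Vim and Lox were the 4 of 9 called, all higher with LA. This comparison shares the LA libraries with the one against vehicle. Pdgfra differed by 0.62 (adjusted p = 3.50e-06), Pdgfrb by 0.30 (0.000143), Vim by 0.29 (7.00e-05) and Lox by 0.24 (0.0172), on the log2 scale. The 16 pairs of an LA and an ANGPTL4 library all ordered the same way for each of the 4 genes. Without replicate 1 of ANGPTL4 at day 6, which stood apart, Lox lost its call (adjusted p = 0.0654), while the other 3 held. The same was seen without both libraries that stood apart. Ly6a was higher with LA in all 16 pairs but was not called by edgeR (0.56, adjusted p = 0.0649; 0.0385 without replicate 1 of day 6 LA). DESeq2 and limma-voom called it (adjusted p 0.0139 and 0.0471), as did edgeR in the compared groups alone (0.0118) and on thinned counts (0.0477). Postn was lower with LA in all 16 pairs and was not called by edgeR (-0.59, adjusted p = 0.114; 0.0299 by limma-voom).

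**Figure D2:**
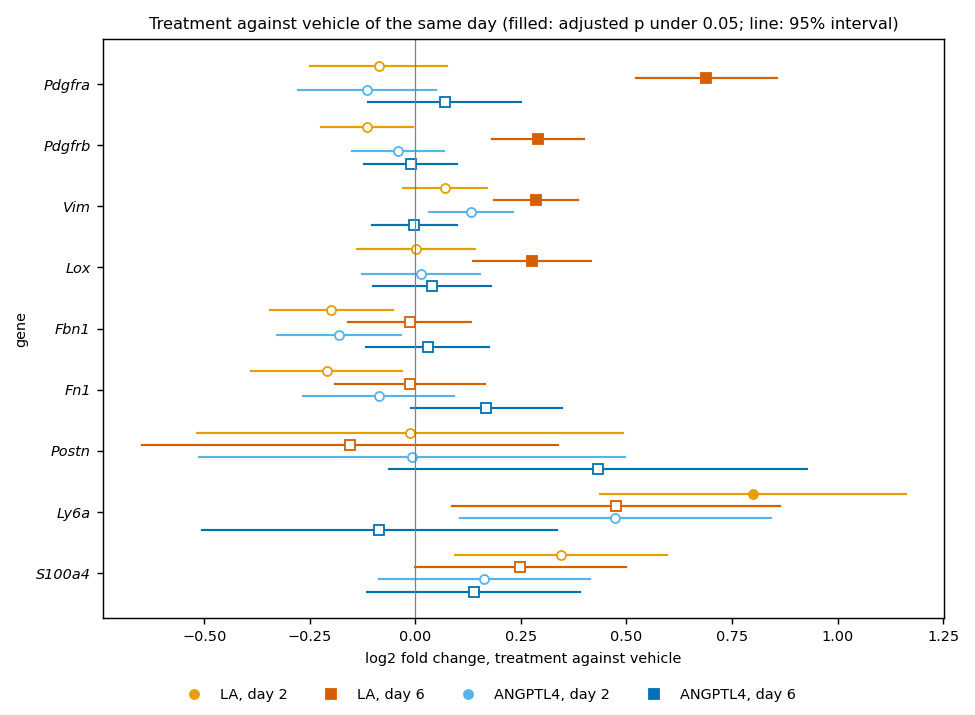
Log2 fold change of each gene with LA or ANGPTL4 against vehicle of the same day, with 95% intervals; filled symbols have an adjusted p under 0.05 in edgeR. The filled symbols are LA at day 6 for Pdgfra, Pdgfrb, Vim and Lox and LA at day 2 for Ly6a.

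Markers of other states moved in the same libraries. At day 6 the summed muscle markers were 31038 to 36210.0 CPM with vehicle, 22734 to 26195 CPM with LA and 29603 to 38413 CPM with ANGPTL4. With LA at day 6, 15 of 19 muscle markers fell and 1 rose. The 3 adipocyte markers in the table (Pparg, Cebpa and Lpl) all rose, with sums of 25.2 to 30.8 CPM with vehicle and 58.5 to 76.9 CPM with LA, and Adipoq, Fabp4, Plin1, Cidec and Lep were not analysed here. The smooth muscle and pericyte sum was 4465 to 5012 CPM with vehicle and 3813 to 4105 CPM with LA, with 0 of 7 tested markers higher and 2 lower. Des, also counted in the muscle sum, is among the 2 lower and makes up much of this sum and of its fall. The part of these markers in the rise of Pdgfra, Pdgfrb, Vim and Lox was not tested.

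The matrix genes Fbn1, Fn1 and Postn rose from day 2 to day 6 in every treatment, and none of the 3 was called for LA or ANGPTL4 against vehicle at day 6. From day 2 to day 6, 45.6% of all genes were called with vehicle (25.2% higher and 20.5% lower). With LA the share was 43.8% (23.1% and 20.7%) and with ANGPTL4 42.2% (22.4% and 19.8%). Of the 9 genes, 5 rose and 1 fell with vehicle, 7 rose and 1 fell with LA, and 5 rose and 2 fell with ANGPTL4. Their median log2 fold changes were 0.26, 0.53 and 0.28, against 0.019, -0.0071 and -0.0031 over all genes.

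Fn1 encodes fibronectin, the cell-adhesive glycoprotein bound by integrins. With vehicle its libraries held 7179.5, 7969, 6669.7 and 8463 CPM at day 2 and 12409.7, 13664, 12062 and 13012 CPM at day 6. With LA they held 7315, 6102, 6195 and 6567 CPM and 13926, 11261, 13465 and 12039 CPM, and with ANGPTL4 8652, 6929.8, 6718 and 6206 CPM and 14665, 15066, 14267 and 13455 CPM. In each treatment every day 6 library was above every day 2 library. The log2 rise was 0.76 with vehicle (SE 0.0873, adjusted p = 7.91e-08), 0.95 with LA (SE 0.0876, adjusted p = 1.41e-09) and 1.01 with ANGPTL4 (SE 0.0877, adjusted p = 3.70e-10). The 3 groups of a day overlapped. At day 2 the LA mean was 6544 ± 551 CPM against 7570.3 ± 799.8 CPM with vehicle (SD, n = 4), a difference that was not called (log2 fold change -0.21, adjusted p = 0.102). It passed the threshold without replicate 1 of day 2 LA (adjusted p = 0.0468) or replicate 3 of day 2 vehicle (0.0411).

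Postn encodes periostin, a matricellular protein. Day 2 levels were 157, 299.5, 196 and 172 CPM with vehicle, 216, 190.1, 174 and 242 CPM with LA and 315, 173, 188 and 144 CPM with ANGPTL4. Day 6 levels were 547, 684, 475 and 632 CPM, 691, 433, 578 and 394 CPM and 694, 869, 822 and 766 CPM in the same order. Libraries of a group spread more for Postn than for the other 8 genes at day 2 with vehicle and with ANGPTL4 (SD 31.1% and 36.9% of the mean), yet no day 2 library reached a day 6 library of its treatment. The rise was 2.82-fold with vehicle (log2 1.50, SE 0.242, adjusted p = 5.59e-05). With LA it was 2.56-fold (log2 1.36, SE 0.241, adjusted p = 0.000157) and with ANGPTL4 3.83-fold (log2 1.94, SE 0.244, adjusted p = 2.82e-06). The rises with LA and with ANGPTL4 were not shown to differ from that with vehicle. The change of effect was not called for LA (-0.14, 95% interval -0.85 to 0.56) or for ANGPTL4 (0.44, -0.27 to 1.15). Whether the LA and ANGPTL4 rises differ from each other was not tested. At day 6 all 4 ANGPTL4 libraries lay above all 4 vehicle libraries (788 ± 75.6 against 584 ± 92.2 CPM, SD, n = 4), and edgeR did not call the difference (log2 fold change 0.43, SE 0.235, 95% interval -0.062 to 0.93, adjusted p = 0.504).

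Fbn1 encodes fibrillin-1, the main protein of microfibrils. It stood at 1406, 1574, 1482 and 1402 CPM with vehicle at day 2 and 1914, 2128, 1809 and 1911 CPM at day 6. With LA the levels were 1302, 1268, 1141 and 1401 CPM and 2089.6, 1725, 2089 and 1786 CPM. With ANGPTL4 they were 1464, 1306, 1281 and 1121 CPM and 1947, 2002, 1988 and 1986 CPM. The 12 libraries of day 6 all lay above the 12 of day 2. Log2 rises were 0.40 with vehicle, 0.59 with LA and 0.61 with ANGPTL4 (adjusted p 3.18e-05, 8.59e-08 and 3.40e-08). At day 2 each LA library was below each vehicle library, and the difference was just short of a call (log2 fold change -0.20, SE 0.0714, 95% interval -0.34 to -0.053, adjusted p = 0.0568). It passed the threshold without replicate 4 of day 2 LA (adjusted p = 0.0172) or replicate 1 of day 2 vehicle (0.0459). DESeq2 called it (0.0341), as did edgeR with DESeq2 size factors (0.0452) and with the filter of 5 CPM (0.0427). With ANGPTL4 at day 2 the difference from vehicle was -0.18 (adjusted p = 0.102; 0.0255 without replicate 1 of day 2 ANGPTL4).

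Pdgfra was the gene that fell with vehicle, by 0.20 on the log2 scale from 31.9 ± 5.39 to 27.7 ± 2.08 CPM (SD, n = 4, adjusted p = 0.0467). The groups overlapped, with replicates 1 and 4 of day 2 vehicle at 35.0 and 37.8 CPM above the rest. Without either the call was lost (adjusted p 0.106 and 0.286), as it was without replicate 1, 2 or 4 of day 6 vehicle (0.0836, 0.0700 and 0.0580). The call was also lost by limma-voom (0.0763), in the compared groups alone (0.0844) and on thinned counts (0.0583). With ANGPTL4, Pdgfra was at a log2 change of -0.019 from day 2 to day 6 (95% interval -0.19 to 0.16) and Pdgfrb at -0.049 (-0.16 to 0.061).

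**Figure D3:**
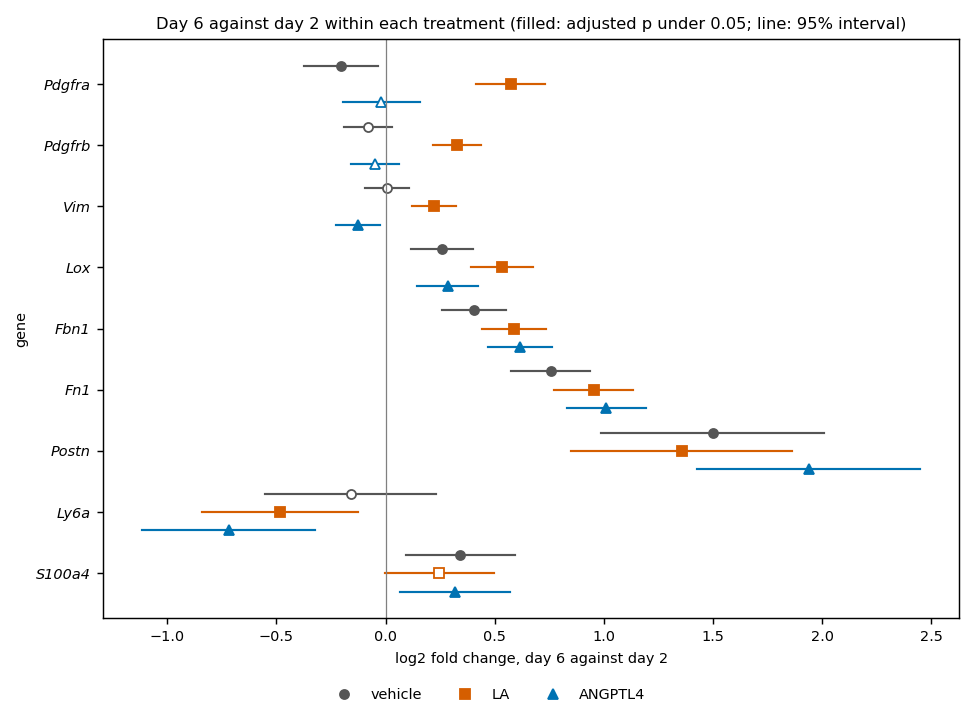
Log2 fold change of each gene from day 2 to day 6 within vehicle, LA and ANGPTL4, with 95% intervals; filled symbols have an adjusted p under 0.05 in edgeR. Postn has the highest values (1.36 to 1.94), while Pdgfra, Pdgfrb and Vim are above 0 and filled with LA only in this plot.

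Over the same days the summed muscle markers were 30150.5 to 35078 CPM at day 2 and 31038 to 36210.0 CPM at day 6 with vehicle, ranges that overlap. With LA the sums were 22185 to 29944 and 22734 to 26195 CPM, which overlap too. With ANGPTL4 they were 23865 to 24747 CPM at day 2 and 29603 to 38413 CPM at day 6, higher at day 6 with no overlap. Of the 19 muscle markers, 11 rose and 3 fell with vehicle, 7 rose and 8 fell with LA, and 10 rose and 4 fell with ANGPTL4. The summed adipocyte markers were lower at day 6 with no overlap in each treatment: 64.1 to 82.7 and 25.2 to 30.8 CPM with vehicle, 80.4 to 105 and 58.5 to 76.9 CPM with LA, and 79.0 to 92.2 and 24.3 to 31.3 CPM with ANGPTL4. The 3 markers did not all fall: 0 rose and 1 fell with vehicle, 1 rose and 1 fell with LA, and 0 rose and 1 fell with ANGPTL4. The smooth muscle and pericyte sum overlapped between the days with vehicle (4459.6 to 5102 and 4465 to 5012 CPM). It was lower at day 6 with no overlap with LA (4799 to 5186 and 3813 to 4105 CPM) and with ANGPTL4 (4852 to 5666 and 4519.6 to 4796 CPM). The 7 tested markers of this list did not fall together: 3 rose and 2 fell with vehicle, 2 rose and 2 fell with LA, and 3 rose and 2 fell with ANGPTL4. The part of these markers in the day changes of the 9 genes was not tested.

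Ly6a (Sca-1), a GPI-anchored surface protein of progenitor cells, was the only gene of the 9 called at day 2 with LA. At that contrast 15.1% of all genes were called (8.27% higher and 6.82% lower), so 1 of 9 is near the background. Vehicle libraries of day 2 held 49.6, 31.0, 37.6 and 36.8 CPM and LA libraries 70.4, 71.5, 75.3 and 48.3 CPM. Replicates 1 to 3 with LA lay above all vehicle libraries, while replicate 4 lay below replicate 1 of vehicle. The means were 38.8 ± 7.80 and 66.4 ± 12.3 CPM (SD, n = 4; log2 fold change 0.80, SE 0.173, 95% interval 0.44 to 1.16, adjusted p = 0.00594). The call was lost when only these 8 libraries were fitted (adjusted p = 0.0538). Summed muscle markers at day 2 were 30150.5 to 35078 CPM with vehicle and 22185 to 29944 CPM with LA, and their part in the rise of Ly6a was not tested. ANGPTL4 libraries of day 2 held 42.6, 54.1, 49.7 and 69.3 CPM, above vehicle in 15 of 16 pairs and not called (log2 fold change 0.47, adjusted p = 0.0923; 0.0428 without replicate 1 of day 2 vehicle).

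At day 6 Ly6a stood at 36.2, 41.7, 31.6 and 28.8 CPM with vehicle, 39.0, 57.3, 44.6 and 51.9 CPM with LA and 31.3, 28.1, 34.6 and 35.9 CPM with ANGPTL4. LA was above vehicle in 15 of 16 pairs without a call in edgeR (log2 fold change 0.47, SE 0.185, 95% interval 0.086 to 0.86, adjusted p = 0.0899), and DESeq2 gave an adjusted p of 0.0373. The LA effect on Ly6a at day 6 was not shown to differ from that at day 2 (difference -0.32, 95% interval -0.86 to 0.21). From day 2 to day 6 Ly6a fell by 0.72 with ANGPTL4 (SE 0.189, adjusted p = 0.00457), lower in all 16 pairs. With LA it fell by 0.48 (SE 0.171, adjusted p = 0.0283). The fall with LA lost its call in 7 of 18 alternatives. Among these were the fits without replicate 1, 2 or 3 of day 2 LA (adjusted p 0.0573, 0.0583 and 0.0755). Others were the fits without replicate 1 or 3 of day 6 LA (0.107 and 0.0675) and without both libraries that stood apart. In the order of group means, Ly6a went from LA at day 2 down to ANGPTL4 at day 6, and every neighbour in that order overlapped. How reads shared with near relatives of Ly6a were counted was not stated, so its values are uncertain to that extent.

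S100a4, a calcium-binding protein also called FSP1, was not called by edgeR with LA or ANGPTL4 against vehicle at either day. Its day 6 libraries held 634, 566, 612 and 621 CPM with vehicle and 693, 708, 717 and 774 CPM with LA. All LA libraries were above all vehicle libraries, and the fit of 24 libraries gave a log2 fold change of 0.25 (95% interval -0.0017 to 0.50, adjusted p = 0.180). Fitting only these 8 libraries gave a call (adjusted p = 0.000310). At day 2 the LA libraries held 644, 626, 727 and 436 CPM and the vehicle libraries 532, 528, 415 and 443 CPM. Replicate 4 of LA lay among the vehicle libraries and the other 3 lay above them. The log2 fold change was 0.35 (SE 0.120, adjusted p = 0.0574), and 0.000801 was the adjusted p without that replicate. Without replicate 1 of day 2 vehicle the adjusted p was 0.0498. Both other tools called this day 2 difference (adjusted p 0.0150 by DESeq2 and 0.0321 by limma-voom), as did edgeR with library totals alone (0.0434) and with the filter of 5 CPM (0.0493). ANGPTL4 libraries were at 481 to 627 CPM at day 2 and 604 to 718 CPM at day 6.

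S100a4 rose from day 2 to day 6 by 0.34 with vehicle (SE 0.120, adjusted p = 0.0253) and by 0.32 with ANGPTL4 (SE 0.120, adjusted p = 0.0393). With LA the change was 0.25 (95% interval -0.0029 to 0.50, adjusted p = 0.101). The adjusted p was 0.0271 without replicate 3 of day 2 LA, which stood apart. DESeq2 and limma-voom called the change (0.0474 and 0.0399), as did edgeR without both libraries that stood apart. The vehicle rise lost its call without replicate 3 or 4 of day 2 (0.108 and 0.0743) or replicate 1 or 4 of day 6 (0.0781 and 0.0631). The ANGPTL4 rise lost its call without replicate 2, 3 or 4 of day 2 (0.118, 0.116 and 0.0695) or replicate 1, 2 or 3 of day 6 (0.0937, 0.0807 and 0.0635), with library totals alone (0.0983) and on thinned counts (0.0557). That call was also lost without both libraries that stood apart. In the order of group means, LA at day 6 was highest and vehicle at day 2 lowest, and all neighbours overlapped.

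None of the 9 genes was called by edgeR for ANGPTL4 against vehicle at either day. At day 2 edgeR called 9.82% of all genes (3.86% higher and 5.96% lower). At an unadjusted p under 0.05 the count was 3 of 9, against 3389 of all 12994 genes, and it is not read as a result about the 9. Of the 9, limma-voom called 1 (Ly6a) and DESeq2 0. At day 6 edgeR called 0.0231% of all genes (0.0154% higher and 0.00770% lower). Of the 9 genes, 0 had an unadjusted p under 0.05, against 1513 of all 12994, and limma-voom and DESeq2 each called 0. The 95% intervals at day 6 were -0.11 to 0.25 for Pdgfra, -0.12 to 0.099 for Pdgfrb, -0.10 to 0.098 for Vim and -0.10 to 0.18 for Lox. These intervals lie below the LA estimates for the same 4 genes, while those of Fn1 (-0.011 to 0.35) and Postn (-0.062 to 0.93) reach well above 0. The change of the ANGPTL4 effect from day 2 to day 6 was called for 0.277% of all genes (0.0847% higher and 0.192% lower). It was called for 0 of the 9, and for 0 by limma-voom or DESeq2. At an unadjusted p under 0.05 stood 2415 of all 12994 genes and 3 of the 9. Those 3 were Fbn1, Fn1 and Ly6a, and Fn1 passed without replicate 1 of day 2 ANGPTL4 (adjusted p = 0.0495).

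Between LA and ANGPTL4 at day 2, 0.0924% of all genes were called by edgeR (0.0616% higher with LA and 0.0308% lower). None of the 9 genes was called, 0 had an unadjusted p under 0.05 (against 1607 of all 12994), and limma-voom and DESeq2 each called 0. LA and ANGPTL4 were each compared with the same vehicle libraries. At day 2 Vim was 0.071 with LA and 0.13 with ANGPTL4, Fbn1 -0.20 and -0.18, and Ly6a 0.80 and 0.47 on the log2 scale.

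Around the 9 genes, 97 tested genes of related function were counted in 8 lists. With LA at day 6, edgeR called 24 higher and 11 lower, against 7.83% and 9.38% of all genes. The count of lower genes became 7 without replicate 1 of day 6 vehicle and 6 without replicate 2 of day 6 LA. Of the 12 other fibroblast and fibro-adipogenic markers, 8 rose and 0 fell (median log2 fold change 0.46, against -0.0096 over all genes). Sfrp2, a secreted Wnt-binding protein, rose from 163 to 289 CPM (log2 fold change 0.82, SE 0.121, adjusted p = 5.45e-05). Ccn5, a matricellular protein, rose by 0.74 and Dpt, the matrix protein dermatopontin, by 0.68. The other 5 were Dcn, Lum, Prrx1, Twist2 and Gsn.

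Among the 20 genes of PDGF ligands and signalling, 3 rose and 3 fell with LA at day 6 (median 0.0072). Pdgfa, a ligand of the alpha receptor, was lower at 46.8 against 62.3 CPM with vehicle (log2 fold change -0.41, SE 0.0668, adjusted p = 2.82e-05), while its receptor was higher. Pdgfb also fell (log2 fold change -0.34, SE 0.102, adjusted p = 0.0183). Pik3r1, the regulatory subunit of PI3 kinase, rose (log2 fold change 0.40, SE 0.0804, adjusted p = 0.000643). The ligands Pdgfc (0.021, adjusted p = 0.836) and Pdgfd (0.30, adjusted p = 0.182) were not called.

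In the fibrillin microfibril and elastic fibre list, 7 of 16 genes rose and 2 fell with LA at day 6 (median 0.11), though Fbn1 itself was not called. Fbln1 (fibulin-1) rose from 43.5 to 96.8 CPM (log2 fold change 1.15, SE 0.144, adjusted p = 8.63e-06) and Emilin1, an elastic fibre glycoprotein, from 11.7 to 24.4 CPM (log2 fold change 1.07, SE 0.104, adjusted p = 4.57e-09). Adamtsl2, which binds fibrillin-1, fell (log2 fold change -0.65, SE 0.0791, adjusted p = 2.42e-07). Of 17 fibronectin and periostin partners, 3 rose and 3 fell (median 0.021). The integrin subunit Itga8 rose at low level, from 2.27 to 5.68 CPM (log2 fold change 1.33, SE 0.204, adjusted p = 1.12e-05), and Tnc (tenascin-C) fell (log2 fold change -0.67, SE 0.166, adjusted p = 0.00782).

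Of 9 genes of lysyl oxidases and their processing, 1 rose, Pcolce, the enhancer of procollagen C-proteinase (log2 fold change 0.41, SE 0.0524, adjusted p = 7.15e-07), and 0 fell (median 0.078). Lox was called, while its relatives Loxl1 (0.030), Loxl2 (0.29), Loxl3 (0.044) and Loxl4 (0.29) were not. Among 8 intermediate filament genes and linkers, 0 rose and 3 fell (median -0.14). Des (desmin), the filament of muscle cells, fell from 2556 to 1855 CPM (log2 fold change -0.46, SE 0.0498, adjusted p = 3.46e-08) and Nes (nestin) fell (log2 fold change -0.36, SE 0.0529, adjusted p = 6.01e-06), in the libraries in which Vim rose. In the S100 list 1 of 6 rose, S100a10 (log2 fold change 0.49, SE 0.115, adjusted p = 0.00449), and 0 fell. In the list of Ly6, GPI-anchored and progenitor surface genes 2 of 10 rose and 0 fell: Vcam1 (log2 fold change 0.69, SE 0.106, adjusted p = 7.46e-05) and Cd34 (log2 fold change 0.41, SE 0.0765, adjusted p = 0.000165). The muscle and adipocyte sums given for day 6 apply to these lists too, and their part in them was not tested.

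**Figure D4:**
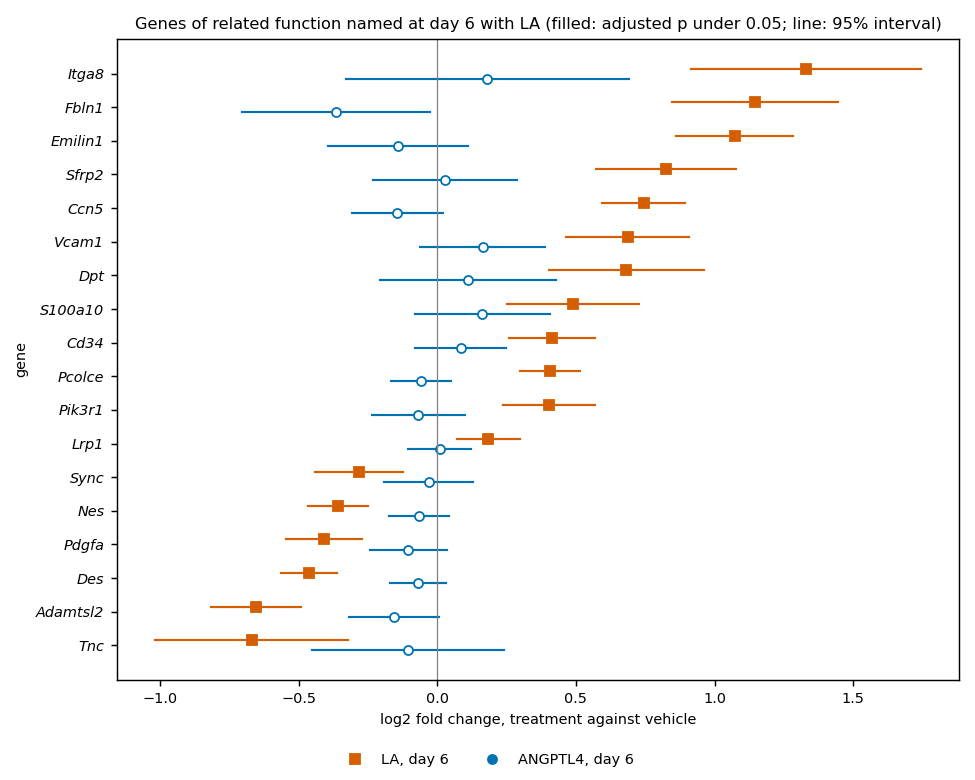
Log2 fold change against vehicle at day 6 of the related genes named for LA, with LA (squares) and ANGPTL4 (circles) and 95% intervals; filled symbols have an adjusted p under 0.05 in edgeR. All LA symbols are filled, from Itga8 (1.33) to Tnc (-0.67), and all ANGPTL4 symbols are open.

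With ANGPTL4 at day 6, edgeR called 0 of the 97 related genes, 0 were called by limma-voom or DESeq2, and 1 without the libraries that stood apart. At an unadjusted p under 0.05 stood 10 of the 97, against 1513 of all 12994 genes. For Sfrp2 the value was 0.028 (95% interval -0.23 to 0.29), for Ccn5 -0.14 (-0.31 to 0.021) and for Pdgfa -0.10 (-0.24 to 0.034). At day 2, 7 of the 97 rose and 11 fell with LA, where 8.27% and 6.82% of all genes were called. With ANGPTL4, 2 rose and 6 fell, where the shares of all genes were 3.86% and 5.96%. Shares of this size are not read as a result about the related genes. With LA at day 2 the counts became 2 higher and 7 lower without the 2 libraries that stood apart, 2 and 3 in the fit of the compared groups alone and 12 and 12 without replicate 4 of LA. They were 3 and 11, 4 and 9, and 2 and 8 without replicates 1, 2 and 3 of LA, and 2 and 10, and 4 and 6 without replicates 3 and 4 of vehicle. For ANGPTL4 at day 2 the counts were 0 and 3 without replicate 4 of ANGPTL4, 2 and 2 without replicate 4 of vehicle, 0 and 5 without replicate 1 of vehicle, and 0 and 4 in the fit of the compared groups alone. The calls of the 4 genes named next held under every alternative. Itgav, an integrin subunit that binds fibronectin and periostin, fell with both (LA -0.31, adjusted p = 0.000978; ANGPTL4 -0.26, adjusted p = 0.00475). With LA at day 2, Itga4, another fibronectin-binding subunit, fell (-0.42, adjusted p = 0.00599), and Ltbp1, which binds fibrillin, fell (-0.24, adjusted p = 0.00273). Ccn5 rose at day 2 as well (0.40, adjusted p = 0.00136).

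The change of the LA effect between the days was called higher for 20 and lower for 6 of the 97. Over all genes 19.7% were called for this change, 8.68% higher and the rest lower. It was 0.64 for Pik3r1 (adjusted p = 0.000347), 1.13 for Fbln1 (0.000609), 0.83 for Sfrp2 (0.00244) and -0.45 for Des (5.08e-05).

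From day 2 to day 6 with vehicle, 42 of the 97 rose and 21 fell, shares read against 25.2% and 20.5% of all genes. Among the lysyl oxidase genes 7 of 9 rose and 2 fell, with Loxl2 at 1.29, Loxl4 at 0.73 and Loxl3 at 0.43 (adjusted p 3.56e-08, 0.000158 and 1.01e-07). Among fibronectin and periostin partners 9 of 17 rose and 2 fell, with Tnc at 1.00 and Tgm2, a transglutaminase that cross-links fibronectin, at 0.80 (adjusted p 7.81e-05 and 9.71e-09). The fibrillin list was split, with 5 of 16 higher and 6 lower: Mfap5, a microfibril protein, rose by 1.67 and Fbln1 fell by 0.90 (adjusted p 0.000223 and 3.94e-05). The PDGF list was also split (6 of 20 higher, 5 lower), with Pdgfa at 0.67 and Pdgfd at -0.57 (adjusted p 1.04e-09 and 0.00177). Of other fibroblast markers 6 of 12 rose and 3 fell, and the small proteoglycans Lum and Dcn rose by 2.79 and 1.23 (adjusted p 2.80e-13 and 3.11e-08). The S100 list had 2 of 6 higher and 1 lower, the intermediate filament list 3 of 8 and 1, and the Ly6 and surface list 4 of 10 and 2.

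With LA, 53 of the 97 rose from day 2 to day 6 and 11 fell, where 23.1% and 20.7% of all genes were called. Without replicate 1 of day 6 LA, 7 fell. With ANGPTL4, 40 rose and 26 fell, where the shares of all genes were 22.4% and 19.8%. With LA, 13 of 17 fibronectin and periostin partners rose, Itga8 by 1.84, Ccn2 by 0.80 and Thbs1 (thrombospondin-1) by 0.78 (adjusted p 3.76e-09, 8.40e-10 and 2.25e-08). With ANGPTL4 the change of Thbs1 was 0.88 (adjusted p = 2.04e-09).

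For the 3 genes whose group means spanned at least 1 on the log2 scale, the most similar profiles over the 24 libraries were sought by the root mean square distance of centred log2 CPM. Nearest to Fn1 were Thbs1 (distance 0.0986) and Ccdc80 (0.124), genes of a matricellular and a secreted matrix protein. Nearest to Postn was Anxa8 (0.249), and nearest to Ly6a were Tppp3 (0.207) and Ftl1 (0.223). All these profiles share the same libraries and their depth. Ftl1 has near-identical copies, so its counts are uncertain.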

How the data were processed

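The values the authors deposited are raw, whole-number counts of 14693 genes named by symbol, in 24 libraries made with a QuantSeq 3′ kit from total RNA, per the labels' protocols. Trimmomatic, STAR 2.7.1a, HTSeq 0.9.1, DESeq2, DESeq and build mm39 are named in the submitters' processing notes, without order, settings or strand. The table was already filtered by the authors, and the rule is not given in the sources used here. The lowest total of a gene was 51 counts.

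Here filterByExpr kept 12994 genes and removed 1699. Counts were scaled by TMM and all 24 libraries were fitted by group with the robust quasi-likelihood test of edgeR 4.0.16 (R 4.3.3; 18 residual degrees of freedom; common biological coefficient of variation 6.51%). P-values were adjusted by Benjamini-Hochberg over all genes, and adjusted p-values come from it where no other tool is given. Standard errors are approximate. CPM use TMM-scaled totals, and log2 CPM a prior count of 2. Depth limits precision most in ANGPTL4 at day 6, with 6100684 to 9067864 counts a library. The test was checked on simulated counts.

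The genes and lists were chosen with earlier results of these data known. From each of 8 related lists, up to 3 called genes with the largest change, at least 5 CPM and no overlap were eligible to be named per comparison, and examples in the text were taken from these, with their values known, mostly those called under every alternative. Other list genes are named with their values known too. Alternatives were DESeq2 size factors, library totals alone, no filter, 5 CPM in at least 4 libraries, limma-voom (limma 3.58.1), DESeq2 1.42.0, only the compared groups, the replicate number as a block, thinning to the smallest total, each library left out in turn, and both libraries that stood apart left out.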

Additional observations from a re-analysis of the deposited data

Results flagged for a closer look

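The effect of LA differed between day 6 and day 2 for 4 of the 9 genes, by edgeR's test of the difference between the effects. Of all genes tested, 19.7% were called for this change and 8.68% were called higher. The day 6 effect exceeded the day 2 effect by 0.78 on the log2 scale for Pdgfra (LA against vehicle -0.087 at day 2 and 0.69 at day 6). The excess was 0.41 for Pdgfrb (-0.12 and 0.29), 0.22 for Vim (0.071 and 0.29) and 0.28 for Lox (0.0011 and 0.28). The call of Lox was near the threshold (adjusted p = 0.0437 in edgeR) and was lost in 11 of 26 alternatives. That of Vim was lost in 1 of 26. Summed muscle markers with LA were 22185 to 29944 CPM at day 2 and 22734 to 26195 CPM at day 6, and with vehicle 30150.5 to 35078 and 31038 to 36210.0 CPM, and their part in the difference was not tested. Of 54 gene groups of 4 libraries, none held a library beyond Dixon's 95% limit, which chance passes in about 1 of 20 groups.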

How the results depend on the processing

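Of 99 log2 fold changes (9 genes in 11 comparisons), 34 were called, 24 of them under every alternative. Of the 65 others, 12 passed in at least 1 alternative, and no called value changed direction. The rises of Pdgfra, Pdgfrb, Vim and Lox with LA at day 6 held under every alternative. With LA at day 2 the count of 1 called gene became 2 with DESeq2 size factors, 2 with library totals alone, 3 with the filter of 5 CPM, 2 by limma-voom, 3 by DESeq2, 0 in the fit of the compared groups alone and 1 to 3 with single libraries left out. With ANGPTL4 at day 2 the count of 0 became 1 with library totals alone, 1 by limma-voom and 0 to 1 with single libraries left out. For the change of the ANGPTL4 effect it was 0 to 1 with single libraries left out. Of 136 calls of related genes that the naming rule gave, 110 held throughout.

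The replicate numbers showed no clear pairing of the libraries: no comparison had all 4 same-numbered correlations above 0.1. Between LA and ANGPTL4 at day 6 the same number correlated best for replicates 1, 3 and 4 (r 0.145, 0.0208 and 0.183) but not for replicate 2 (-0.136). Correlations over so few libraries cannot exclude a pairing. With the replicate number as a block, 0 genes were called with ANGPTL4 at day 6 and 0 for the change of the ANGPTL4 effect, and among the 9 genes the change of the LA effect on Lox lost its call (adjusted p = 0.0610). No other call of the 9 genes changed under the block.

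Over all genes, the count with LA at day 2 was 1961, but 422 in the compared groups alone, 1195 thinned, 590 without the libraries that stood apart, 632 without replicate 3 of LA and 1109 without replicate 4 of vehicle. With ANGPTL4 at day 2 it was 1276, but 685 in the compared groups alone, 690 thinned, 712 without replicate 4 of vehicle and 821 without replicate 4 of ANGPTL4. With ANGPTL4 at day 6 it was 3, but 1 with DESeq2 size factors or library totals, 87 by DESeq2, 83 in the compared groups alone, 0 thinned, 10 without the libraries that stood apart and 0 to 7 with single libraries left out. Between LA and ANGPTL4 at day 2 it was 12, but 30 by limma-voom, 35 by DESeq2, 6 in the compared groups alone, 236 without the libraries that stood apart and 6 to 363 with single libraries left out. For the change of the ANGPTL4 effect it was 36, but 56 with DESeq2 size factors, 161 with library totals, 64 with the filter of 5 CPM, 1 by limma-voom, 381 by DESeq2, 60 without the libraries that stood apart and 0 to 312 with single libraries left out. With library totals alone the share of called genes that were higher moved from 54.8% to 68.2% (LA, day 2), 45.5% to 59.1% (LA, day 6), 39.3% to 54.2% (ANGPTL4, day 2), 47.4% to 62.9% (LA against ANGPTL4, day 6), 53.1% to 38.3% (ANGPTL4, day 6 against day 2), 66.7% to 100% (ANGPTL4, day 6) and 30.6% to 17.4% (change of the ANGPTL4 effect). With DESeq2 size factors it moved to 27.1% (ANGPTL4, day 2), 100% (ANGPTL4, day 6) and 60.7% (change of the ANGPTL4 effect). No scaling moved the median of all genes by over 0.1. The causes were not tested.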

Other observations

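Of the 4 PDGF ligand genes, Pdgfa rose and Pdgfc fell from day 2 to day 6 in each treatment, while Pdgfb was not called in any. With vehicle, Pdgfa went from 39.3 to 62.3 CPM and Pdgfc, a ligand of the alpha receptor, from 82.8 to 67.9 CPM (log2 fold change -0.29, SE 0.0505, adjusted p = 2.40e-05). Pdgfd, a ligand of the beta receptor, went from 10.6 to 7.10 CPM. With LA the day change of Pdgfa was 0.29 (SE 0.0668, adjusted p = 0.000821), of Pdgfc -0.32 (adjusted p = 3.60e-06) and of Pdgfd -0.26 (adjusted p = 0.107). With ANGPTL4 the day changes were 0.32 for Pdgfa, -0.44 for Pdgfc and -0.60 for Pdgfd (adjusted p 0.000255, 1.84e-08 and 0.00125). Those of Pdgfb were 0.22 with vehicle, -0.14 with LA and -0.046 with ANGPTL4 (adjusted p 0.0730, 0.266 and 0.754). The LA effect on Pdgfa was lower at day 6 than at day 2, by the test of the difference (-0.38, adjusted p = 0.00489), the opposite sign to that of Pdgfra (0.78).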
